A study of Mus musculus with 3 samples.

Results

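The angiopoietin-Tie and apelin pathways were examined in endothelial cells (EC) and mural cells of Peyer's patches (PP), the lymphoid organs of the small intestinal wall. The members were taken by gene symbol and are 8 of the 31053 genes counted in all libraries, namely *Angpt1*, *Angpt2*, *Tek*, *Tie1*, *Ptprb*, *Apln*, *Aplnr* and *Esm1*. All 8 had counts in each of the 3 droplet-based single-cell RNA sequencing libraries.

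The control library, titled WT, came from C57BL/6 mice. The 2 EC-iCOUPOE libraries, replicates 1 and 2 (hereafter OE1 and OE2), came from mice of the genotype CDH5(PAC)CreERT2;COUP-TFIIOE/OE, in which a Cre driven by the endothelial *Cdh5* promoter and activated by tamoxifen turns on a COUP-TFII (*Nr2f2*) transgene. Mice were 6 to 10 weeks old and PP were taken 14 to 19 days after tamoxifen, a treatment that the protocol gives for both genotypes. Cells were sorted as blood EC, each library pooled both sexes, and neither the number of mice nor the day of isolation is given for a single library. The control library is labelled as a wild-type strain and not as Cre-negative littermates, so strain background, Cre and transgene cannot be told apart here.

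Angiopoietin-1, the *Angpt1* product, is classically made by perivascular and stromal cells and activates the receptor tyrosine kinase TIE2, encoded by *Tek*, on EC, which keeps vessels quiescent and inhibits FOXO1. Angiopoietin-2, the *Angpt2* product, is made by EC themselves and acts as a context-dependent antagonist or weak agonist of TIE2. TIE1 is an orphan co-receptor that pairs with TIE2, and VE-PTP, encoded by *Ptprb*, is the endothelial phosphatase that dephosphorylates TIE2. Apelin (*Apln*) is a secreted peptide of angiogenic tip cells whose G protein-coupled receptor APJ (*Aplnr*) is found on venous and capillary EC. Endocan (*Esm1*) is a secreted proteoglycan often used with *Apln* as a tip cell marker.

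UMIs (unique molecular identifiers, each standing for 1 captured transcript) were summed over the cells of a subset in a library and expressed as CPM, the count scaled to 1000000 UMIs of that subset, with exact Poisson 95% intervals in parentheses. Subsets were rebuilt by clustering without the 8 members. PP capillary EC (PP CapEC) numbered 842, 1030 and 543 cells in the control library, OE1 and OE2. Post-capillary venule cells (PCV) numbered 426, 761 and 95, arterial EC 266, 106 and 40, and capillary resident progenitors (CRP), an angiogenic capillary population, 112, 174 and 58. High endothelial cells (HEC) numbered 397, 98 and 3, so OE2 gives no HEC value. In all, 2468, 3507 and 996 blood EC and 132, 222 and 91 mural cells were kept. HEC held 36.4%, 5.66% and 0.388% of the blood EC UMIs in the control library, OE1 and OE2. Values over all blood EC therefore mix level with subset make-up, and the part of make-up was not tested. Lymphatic EC were 1, 922 and 127 cells and fibroblasts 2488, 8 and 4. Lymphatic levels are thus known only in the EC-iCOUPOE libraries and fibroblast levels only in the control library, and neither could be compared between genotypes. The mix of cells recovered thus differed between the control library and both EC-iCOUPOE libraries. Any difference in sorting or preparation cannot be told apart from genotype here.

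The transgene was visible in every EC subset compared. *Nr2f2* stood at 11, 2051 and 1142 CPM in PP CapEC of the control library, OE1 and OE2, at 8.52, 1222 and 794 CPM in arterial EC and at 252, 1936 and 1632 CPM in PCV. It was also higher in mural cells, at 264, 1236 and 635 CPM. A small cluster was led by *Prss34*, the immunoglobulin gene *Igkc* and the basophil and mast cell gene *Mcpt8*. It held 0 *Nr2f2* UMIs in the control library and 639 CPM in OE1. Whether cells outside endothelium express the transgene themselves was not tested. The libraries held 6080, 4959 and 1441 barcodes with 17341398, 17417260 and 3548983 UMIs, and OE2 with the fewest UMIs has the widest intervals. The control library and OE2 shared 12 cell barcodes and OE1 shared 0 with either. OE1 may thus differ from both in chemistry, which was not tested.

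Cells were checked against the markers of their class. The summed blood EC markers reached 5051, 5677 and 4775 CPM in blood EC and only 184 CPM in control fibroblasts. Mural cells carried pericyte markers at 2965, 2221 and 2726 CPM and smooth muscle markers at 9648, 13334 and 19330.4 CPM, but also blood EC markers at 2423, 2787 and 555 CPM. Of the 110 EC-iCOUPOE cells in the CRP cluster that carry a subset label in the copy of the study's label table used here, 38 are labelled CRP, 56 PP CapEC and 16 CapEC of the lamina propria (LP), the connective tissue of the villi. In OE1, where 52 of the 174 cells carry a label, 28 are labelled CRP, 17 PP CapEC and 7 LP CapEC. In OE2, where all 58 cells carry a label, the counts are 10, 39 and 9. By label the cluster thus differed between OE1 and OE2. The CRP cluster is therefore broader than the CRP of the study. Of the 67 labelled EC-iCOUPOE cells in the arterial cluster, 11 carry the study's arterial label and 56 the PP CapEC label. The study reports that it could identify mature *Gkn3*-positive arterial EC in its WT cohort only. The arterial cluster is therefore also broader than the arterial EC of the study.

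The spread between control samples cannot be measured with 1 control library, so genotypes are compared by a fold rule and not by a test. A member was called when it was at least 2-fold higher in both EC-iCOUPOE libraries, or at least 2-fold lower in both, and genes entered the comparison when some library had 50 or more of their UMIs in the subset. Fold changes carry exact intervals that cover counting error alone, and the 2 EC-iCOUPOE libraries are the only measure of spread between samples. That spread may include a difference in chemistry. Levels are compared between cell types for each gene and not between genes, since counts per UMI depend on how well each transcript is captured.

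**Figure D1:**
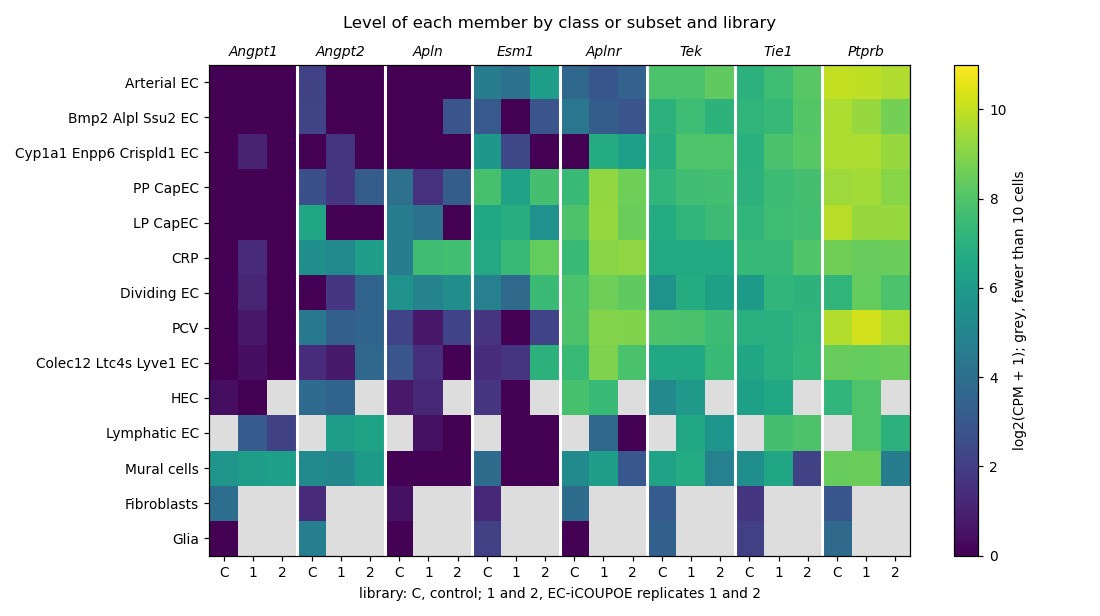
Level of each member (columns, grouped by gene and ordered control, OE1, OE2) in each class or subset (rows), as colour on a scale of log2(CPM + 1). Grey marks classes with fewer than 10 cells in a library. Among the rows drawn, *Angpt1* is highest in the mural row and lower in fibroblasts, *Tek*, *Tie1* and *Ptprb* cover all EC rows, and *Apln* stands out in the CRP row of OE1 and OE2.

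The genes of the ligands and receptors are spread over the genome. On GRCm38, *Angpt1* (ENSMUSG00000022309) lies on chromosome 15 from 42424723 to 42676977, *Angpt2* (ENSMUSG00000031465) on chromosome 8 from 18690263 to 18741562 and *Apln* (ENSMUSG00000037010) on chromosome X from 48025146 to 48034853, all on the minus strand. *Aplnr* (ENSMUSG00000044338) lies on chromosome 2 from 85136225 to 85139923 and *Esm1* (ENSMUSG00000042379) on chromosome 13 from 113209659 to 113218098, both on the plus strand. *Tek* (ENSMUSG00000006386; plus strand, from 94739289 to 94874976) and *Tie1* (ENSMUSG00000033191; minus strand, from 118471191 to 118490061) share chromosome 4. *Ptprb* (ENSMUSG00000020154) lies on chromosome 10 from 116275523 to 116389535, on the plus strand.

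Promoter sequences of RefSeq on GRCm38.p6, from 250 bases before to 50 bases after the start, were at hand for *Apln*, *Esm1*, *Tek* and *Tie1*, that is 4 of the 8 members. Those of *Apln* and *Esm1*, a pair whose co-detection in cells is described below, and of *Tek*, the angiopoietin receptor gene, are shown because the transgene encodes a DNA-binding nuclear receptor. The *Apln* promoter is chrX:48034804-48035103 on the minus strand, that of *Esm1* chr13:113209409-113209708 on the plus strand and that of *Tek* chr4:94739039-94739338 on the plus strand. Both strands were searched for the nuclear receptor half-sites AGGTCA and TGACCC, the NKX2 core AAGTG and the forkhead core TGTTTA, and matches are in capitals.
Apln: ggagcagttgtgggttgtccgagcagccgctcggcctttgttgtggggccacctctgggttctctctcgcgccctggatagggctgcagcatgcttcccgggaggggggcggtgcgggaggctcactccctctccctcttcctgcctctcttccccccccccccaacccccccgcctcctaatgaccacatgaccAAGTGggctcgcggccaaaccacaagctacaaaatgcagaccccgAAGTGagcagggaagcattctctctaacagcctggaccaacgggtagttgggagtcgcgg
Esm1: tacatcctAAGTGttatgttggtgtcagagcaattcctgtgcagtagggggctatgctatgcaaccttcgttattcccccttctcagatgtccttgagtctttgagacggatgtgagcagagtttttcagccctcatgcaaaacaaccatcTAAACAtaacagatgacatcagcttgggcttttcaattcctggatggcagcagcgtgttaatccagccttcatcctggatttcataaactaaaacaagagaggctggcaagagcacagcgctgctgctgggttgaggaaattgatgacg
Tek: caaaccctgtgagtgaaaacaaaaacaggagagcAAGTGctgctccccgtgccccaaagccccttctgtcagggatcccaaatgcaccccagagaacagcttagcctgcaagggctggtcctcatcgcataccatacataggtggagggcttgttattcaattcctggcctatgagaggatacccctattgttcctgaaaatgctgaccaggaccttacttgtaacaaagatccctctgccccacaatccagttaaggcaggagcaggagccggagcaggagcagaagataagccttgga
The capitals mark AAGTG, read in the printed direction, of which there are 2 in *Apln*, 1 in *Esm1* and 1 in *Tek*, and in *Esm1* also 1 reverse forkhead core, TAAACA. No match overlapped another. AGGTCA and TGACCC had 0 matches in the 4 promoters, *Tie1* included, and *Tie1* also had 0 of the other motifs. The shorter COUP-TFII motif GGTC(A/G), with which the study screened the genome, was not searched. Its reverse form TGACC occurs uncapitalised in the printed *Apln* and *Tek* sequences, so these 0 matches hold for the longer half-sites only. Among 32851 promoters of the same length, 16.3% hold AGGTCA, 13.7% TGACCC, 46.4% AAGTG and 13.4% TGTTTA on either strand, so these short motifs are common and a match describes letters only.

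*Angpt1*, the activating ligand of TIE2, was found in mural and stromal cells and almost nowhere in blood EC. In mural cells it stood at 52.8 CPM (33.5 to 79.2) in the control library, 70.6 (55.2 to 88.9) in OE1 and 73.3 (45.4 to 112) in OE2. These 3 intervals overlap, and the ratios to control were 1.34 (0.827 to 2.24) and 1.39 (0.731 to 2.62). Blood EC held 1, 7 and 0 UMIs of *Angpt1* in the 3 libraries, which is 0.124 and 0.529 CPM and, for OE2, a limit of 1.22 CPM set by 3 counts. PP CapEC held 0 UMIs in all 3 libraries, with limits of 2.06, 1.16 and 2.53 CPM.

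Fibroblasts of the control library differed among themselves in *Angpt1*. Fibroblasts led by *Nbl1*, *Tmem119* and *Rbp4*, 99 cells, held 41.7 CPM (20 to 76.7), and those led by *Ogn*, *Col1a1* and *Stc2*, 865 cells, held 27.3 CPM (21.4 to 34.4). The 3 other fibroblast clusters lay between 5.02 and 5.61 CPM. The 99 cells of the first cluster also held *Aplnr* at 159 CPM (112 to 218), whereas the other fibroblast clusters reached at most 15.6 CPM. These cells carried blood EC markers at 62.6 CPM, the lowest among the fibroblast clusters, where the range was 62.6 to 436 CPM.

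Lymphatic EC held *Angpt1* at 7.97 CPM (4.8 to 12.4) in OE1 and 3.42 CPM (0.0865 to 19.0) in OE2, the latter from 1 UMI. The cluster led by *Prss34*, *Igkc* and *Mcpt8*, 30 cells in OE1, had 59.9 CPM (27.4 to 114) from 9 UMIs. It also carried blood EC markers, at 1484 CPM in OE1. In that library the order was thus mural cells, the *Mcpt8* cluster and lymphatic EC, with the intervals of the first pair overlapping and that of lymphatic EC below both.

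Mural cells were split by their blood EC marker UMIs, a split chosen after seeing the data. In the 35, 55 and 57 mural cells with at most 5 such UMIs per 10000, *Angpt1* stood at 97.7 (39.3 to 201), 78.9 (42.0 to 135) and 61.4 (30.7 to 109.9) CPM. *Tek* there stood at 0 UMIs in the control library, 6.07 CPM in OE1 and 11.2 CPM in OE2, and *Ptprb* at 0 UMIs, 24.3 CPM and 0 UMIs. These cells were picked for few EC marker UMIs, so low levels of the EC genes *Tek* and *Ptprb* were largely built into the split. In the other mural cells *Tek* stood at 96.1, 127 and 55.8 CPM and *Ptprb* at 417, 436 and 65.1 CPM. For *Angpt1* the intervals of both kinds of mural cell overlapped in each library, at 43.9, 69.0 and 93.0 CPM in the cells with more EC marker UMIs. Of the 5 members that could be tested in all mural cells, 0 were called, against 4.35% of 3261 genes in either direction. *Ptprb* there stood at 349, 369.7 and 24.4 CPM, low in the library with the fewest EC marker UMIs.

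*Angpt2* was also present in mural cells, at 36.7, 33.3 and 62.8 CPM in all of them and at 27.9, 42.5 and 55.9 CPM in those with few EC marker UMIs, the first of these from 2 UMIs. Cells with more smooth muscle than pericyte marker UMIs held it at 31.9, 33.3 and 51.9 CPM and *Angpt1* at 54.1, 68.7 and 77.9 CPM. Cells with more pericyte markers held *Angpt1* at 52.2 and *Angpt2* at 52.2 CPM in the control library, 6 UMIs each, and at 95 and 35.6 CPM in OE1. The intervals of both mural kinds overlapped for both genes in both libraries. OE2 had 8 cells of the pericyte kind and gives no value.

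**Figure D2:**
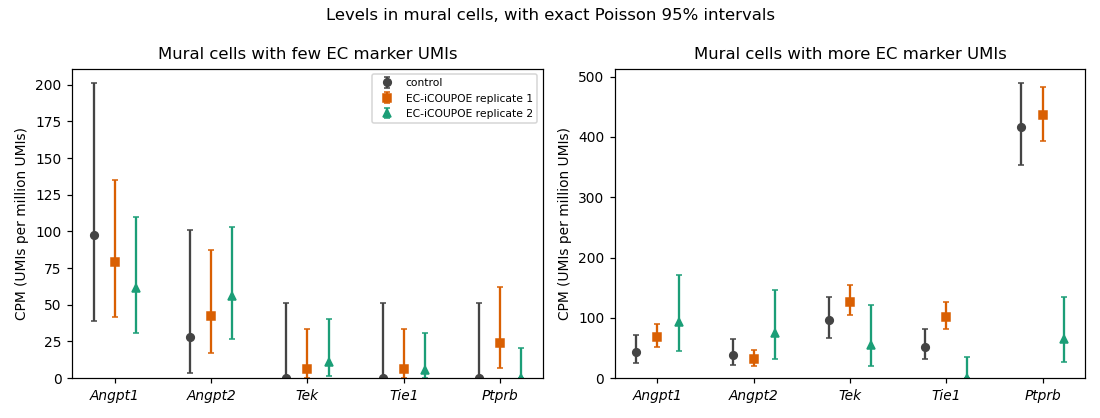
Levels of *Angpt1*, *Angpt2*, *Tek*, *Tie1* and *Ptprb* in CPM in mural cells with at most 5 blood EC marker UMIs per 10000 (left) and in the other mural cells (right). Points are libraries and bars exact Poisson 95% intervals. On the left the receptor and phosphatase genes lie between 0 and 24.3 CPM while *Angpt1* lies between 61.4 and 97.7 CPM. Low levels of these EC genes on the left were largely built into how the cells were picked. The axes of the panels differ in range.

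Within endothelium *Angpt2*, the context-dependent antagonist, was high in lymphatic EC and CRP and in LP CapEC of the control library. Lymphatic EC stood at 67.9 CPM (57.9 to 79.2) in OE1 and 82.0 CPM (52.5 to 122) in OE2. CRP stood at 43.9 (23.4 to 75.1), 37.5 (24.3 to 55.4) and 68.9 (34.4 to 123) CPM in the control library, OE1 and OE2, so the genotypes overlapped. HEC held 13.3 CPM in the control library and 10.7 in OE1, and arterial EC held 2, 0 and 0 UMIs.

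*Angpt2* in venules was lower in both EC-iCOUPOE libraries, but on few counts. PCV held 29, 30 and 3 UMIs, or 21.0, 9.40 and 10.8 CPM, with ratios of 0.447 (0.259 to 0.771) and 0.515 (0.100 to 1.66), and no library reached the 50 UMIs of the rule. LP CapEC held 18, 0 and 0 UMIs, which is 88.7 CPM (52.6 to 140.1) in the control library against limits of 24.1 and 70.2 CPM. The upper limit of the ratio was 0.371 in OE1 and 1.08 in OE2, where only 19 LP CapEC were found. Over all blood EC, *Angpt2* stood at 13.8, 5.82 and 10.6 CPM, with ratios of 0.422 (0.311 to 0.570) and 0.769 (0.482 to 1.19), and it was not called. The direction did not hold in every alternative, the mean log2 ratio being -0.81 in all cells and 0.75 in cells with Y-linked and no *Xist* UMIs.

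*Tek*, the angiopoietin receptor, was present in every blood EC subset and varied mainly along the vascular tree. In the control library it was highest in PCV at 243 CPM (218 to 271) and arterial EC at 233 CPM (196 to 276), whose intervals overlap. PP CapEC followed at 148 CPM (129 to 169), below both, and CRP stood at 101 CPM (68.4 to 145). HEC, the specialised venous EC that recruit lymphocytes, held 35.1 CPM (28.7 to 42.6), the lowest value, with an interval that overlaps that of dividing EC (49.2 CPM, 24.5 to 88.0). In OE1, HEC were again the lowest blood EC subset at 61.5 CPM (45 to 82.0).

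EC-iCOUPOE PP CapEC held *Tek* at 197 (180.2 to 215) and 207 (182 to 234) CPM, which is 1.33 (1.14 to 1.57) and 1.40 (1.16 to 1.69) times the control level and under the 2-fold rule. In PCV the values were 243, 228 and 188 CPM, in arterial EC 233, 232 and 318 CPM and in CRP 101, 102 and 100.2 CPM. All of these ratios had intervals that include 1. The CRP values differed by less than counting error.

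A cluster of EC led by *Cyp1a1*, *Enpp6* and *Crispld1*, left without a subset name, had *Tek* at 114, 249 and 252 CPM. Here both ratios passed the 2-fold rule, at 2.18 (1.18 to 4.58) and 2.21 (1.15 to 4.78), but the control value rests on 10 UMIs in 65 cells. *Aplnr* was also called higher there, at 0, 211 and 25 UMIs, or at least 3.25 and 2.12 times the level that 3 control UMIs would give. In this cluster 14.7% of the 5152 genes tested were called higher, a larger share than in PP CapEC (4.35%). Of its 300 labelled EC-iCOUPOE cells, 298 carry the PP CapEC label of the study.

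*Tie1*, the orphan co-receptor, was more even across subsets. In the control library it ranged from 62.6 CPM in dividing EC to 166 CPM in CRP, and the intervals of neighbours in that order overlapped. HEC stood at 74.3 CPM (64.8 to 84.9), below PP CapEC at 133 CPM (115 to 153) and PCV at 119.8 CPM (102 to 139). Lymphatic EC held 216 and 243 CPM in OE1 and OE2, among the 5 highest classes of each of these libraries.

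*Tie1* stood above control in both EC-iCOUPOE libraries in several subsets without being called. In PP CapEC it was 133, 188 and 218 CPM, with ratios of 1.42 (1.20 to 1.68) and 1.65 (1.36 to 2.00). Arterial EC held 135, 193 and 278 CPM, with ratios of 1.43 (1.00 to 2.03) and 2.07 (1.29 to 3.21). Over all blood EC, whose subset make-up differs between libraries, the values were 106, 156 and 221 CPM, and OE2 but not OE1 was past 2-fold. In PCV, at 119.8, 123 and 144 CPM, both intervals of the ratio include 1.

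Dividing EC were the only subset with a call for *Tie1*, at 62.6, 152 and 138 CPM (ratios 2.43 and 2.20). The control value there rests on 14 UMIs in 23 cells, the interval for OE2 reaches down to 0.953, and 9.83% of the genes tested in dividing EC were called higher.

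*Ptprb*, encoding the phosphatase VE-PTP, was most abundant in arterial EC and venules and low in HEC. In the control library arterial EC held 1005 CPM (926 to 1090.0), LP CapEC 892 (767 to 1031), PCV 845 (797 to 895), PP CapEC 663 (622 to 706), CRP 395 (327 to 474) and HEC 151 (137 to 165). CRP lay below PP CapEC, and HEC below CRP, with intervals apart. HEC of OE1 held 250 CPM (215 to 288), the lowest of the blood EC subsets of that library, whereas dividing EC of the control library were as low as HEC, at 147 CPM (102 to 207).

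No subset had a call for *Ptprb*. Arterial EC held 1005, 989 and 824 CPM, PP CapEC 663, 719 and 522 CPM and CRP 395, 348 and 369 CPM. The PP CapEC ratios were 1.09 (1.00 to 1.17) and 0.787 (0.711 to 0.872). Dividing EC had ratios of 2.31 (1.61 to 3.42) and 1.58 (0.879 to 2.80), and a cluster led by *Bmp2*, *Alpl* and *Ssu2* had 0.785 (0.632 to 0.973) and 0.525 (0.391 to 0.697), short of the 2-fold rule in both subsets. In PCV the values were 845, 1212 and 805 CPM, so OE1 stood 1.43-fold (1.34 to 1.53) above control and OE2 0.953-fold (0.822 to 1.10). The EC-iCOUPOE libraries differed more from each other than OE2 differed from control.

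*Tek* and *Tie1* UMIs did not visibly gather in the same cells at this depth. After thinning each cell to 1000 UMIs, 11.5% of control blood EC with a *Tek* UMI and 10.9% of those without held a *Tie1* UMI. The shares were 16.4% and 15.4% in OE1 and 16.6% and 17.7% in OE2, each pair with overlapping exact binomial intervals. Over 36 subset and library points, *Tek* went most closely with *Ptprb* among 10158 genes (Pearson's r = 0.93), then *Sgk1* (0.89) and *Slc12a7* (0.86). *Tie1* went most closely with the endothelial genes *Sox18* (0.95), *Kdr* (0.92) and *Elk3* (0.92). Points of 1 library share their depth, so these values describe the classes and carry no test.

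*Aplnr*, the apelin receptor, had the most widespread difference between genotypes among the 8 members. In PP CapEC it stood at 176 CPM (155 to 199) in the control library, 601 (572 to 632) in OE1 and 379 (345 to 416) in OE2. Both EC-iCOUPOE libraries lay above control with intervals apart, at 3.42-fold (2.99 to 3.92) and 2.16-fold (1.85 to 2.53). *Aplnr* was the 1 member called of 5 tested in PP CapEC, where 6.85% of 6275 genes tested were called in either direction and 4.35% were called higher.

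The make-up of PP CapEC also differed between libraries, and its part in this difference was not tested. The class holds 3 clusters, of which clusters 3 and 5 held 415 and 409 of the 842 control cells, and cluster 0 held 798 of 1030 cells in OE1 and 340 of 543 in OE2. Cluster 0 had high *Aplnr* in all libraries, at 440.2 CPM in its 18 control cells, 686 in OE1 and 486 in OE2, with ratios of 1.56 (0.941 to 2.79) and 1.10 (0.661 to 1.99). Within cluster 3 the values were 59.5, 146 and 102 CPM, with ratios of 2.45 (1.63 to 3.70) and 1.72 (1.05 to 2.77). Within cluster 5 they were 313, 449.8 and 328 CPM, with ratios of 1.44 (1.01 to 2.01) and 1.05 (0.682 to 1.55). No single cluster met the 2-fold rule for *Aplnr* in both libraries, where 26.9%, 1.75% and 1.37% of the genes tested in clusters 0, 3 and 5 were called higher.

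The call in PP CapEC also depended on how the class was drawn and measured. It was not made at the finer clustering resolution, without alignment of the libraries, with doublets kept, with the mean of per-cell CPM or with edgeR's quasi-likelihood test, where the adjusted p over all genes was 0.24 and the lone control library is assumed to vary like the EC-iCOUPOE libraries. The mean log2 ratio, 1.44 ± 0.47 (SD, n = 2 libraries), ranged from 0.48 to 2.92 over the 12 alternatives that give a ratio, all above 0. In the 538 and 839 EC-iCOUPOE cells with the study's PP CapEC label, *Aplnr* stood at 342 (314 to 371) and 285 (262 to 309) CPM. These values are lower than in the rebuilt class and above the control level of that class. The label also covers cells outside the rebuilt class, 298 of them in the *Cyp1a1* cluster. No control cell carries a label, so the labelled cells have no like control.

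*Aplnr* was called higher in PCV as well, at 241 (216 to 268), 492 (468 to 517) and 487 (409 to 577) CPM. The ratios of 2.04 (1.81 to 2.31) and 2.02 (1.64 to 2.48) lie just over the threshold, and 3.21% of 6702 genes were called higher in PCV (4.95% in either direction). The 206 and 104 cells with the study's PCV label held 478 and 483 CPM, close to the rebuilt class. The call was lost with edgeR (adjusted p = 0.73), with median-of-ratios scaling and at the finer resolution.

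Other subsets varied in *Aplnr*. LP CapEC held 246, 603 and 374 CPM, with ratios of 2.45 and 1.52. The venous-like cluster led by *Colec12*, *Ltc4s* and *Lyve1* held 177, 464 and 229 CPM. HEC held 224 CPM (208 to 242) in the control library and 171 (143 to 203) in OE1, so the rebuilt HEC were lower with the transgene in the 1 library that could be compared. Cells with the study's HEC label, of which 84 lie in the *Colec12* cluster and 33 in the rebuilt HEC, held 394 CPM (352 to 441) in OE1 and 371 CPM (226 to 573) in OE2. The level in HEC thus depends on which cells carry the name, and no control cell carries a label for a like comparison.

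Arterial EC were nearly free of *Aplnr* in all 3 libraries, at 7, 2 and 1 UMIs or 11.9, 6.64 and 9.93 CPM. *Nr2f2* was present there in both EC-iCOUPOE libraries, and its bearing on *Aplnr* in arterial EC was not tested. *Aplnr* did not reach the 50 UMIs of the rule in arterial EC. Its upper limits there of 24 and 55.3 CPM in OE1 and OE2 are far below the levels of capillaries. Most labelled EC-iCOUPOE cells of this cluster carry the PP CapEC label of the study. Whether the make-up of the arterial cluster is alike between genotypes was not tested. In arterial EC 0 of the 3 members tested were called, against 4.66% of 2017 genes tested in either direction. All blood EC together had *Aplnr* at 189, 410.5 and 316 CPM (ratios 2.17 and 1.67), and there 0 of the 7 members tested were called, against 7.15% of 10279 genes.

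**Figure D3:**
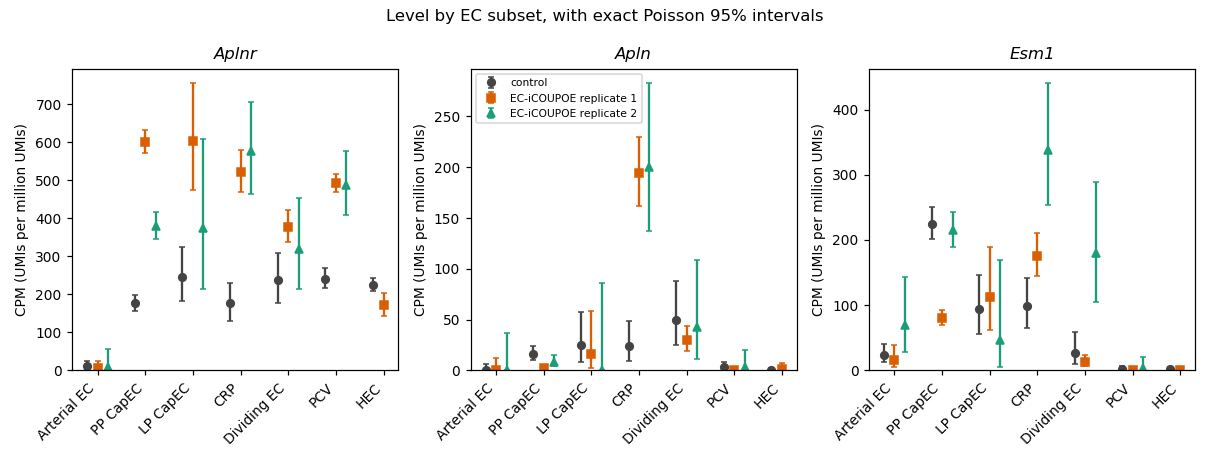
Levels of *Aplnr*, *Apln* and *Esm1* in CPM in 7 EC subsets, with the control library as circles, OE1 as squares and OE2 as triangles, and exact Poisson 95% intervals. *Aplnr* lies above control in both EC-iCOUPOE libraries in PP CapEC, CRP and PCV and near 0 in arterial EC. *Apln* is highest in CRP of OE1 and OE2, at 194 and 200.3 CPM. HEC of OE2 have too few cells to plot.

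*Apln*, the apelin gene, was sparse in the control library and concentrated in CRP of EC-iCOUPOE mice. CRP held 7, 129 and 32 UMIs, or 23.6 CPM (9.51 to 48.7) in the control library, 194 (162 to 230.2) in OE1 and 200.3 (137 to 283) in OE2. Both EC-iCOUPOE libraries lay above control with intervals apart, at 8.19-fold (3.86 to 20.8) and 8.47-fold (3.67 to 22.7). *Aplnr* was called in the same cluster, at 176, 521 and 576 CPM (ratios 2.97 and 3.28), so 2 of 6 members tested were called higher in CRP, where 5.67% of 2256 genes tested were called higher and 8.38% in either direction.

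High *Apln* was also found in cells with the study's own CRP label (a check added after seeing the data). The 41 such cells of OE1 held *Apln* at 186 CPM (126 to 264) and the 18 of OE2 at 251 CPM (151 to 393), and PP CapEC by label held 5.94 and 14.2 CPM. The study defined CRP by canonical markers, and whether *Apln* had a part in the label is not given. No control cell carries a label, so these values do not bear on the difference between genotypes. Under edgeR's quasi-likelihood test, which has to assume the spread of the lone control library, the Benjamini-Hochberg adjusted p in CRP was 0.024 for *Apln* and 0.21 for *Aplnr*, and these values carry no more weight than that assumption. *Apln* is X-linked, and libraries differed in sex make-up, with 6 of 112, 41 of 174 and 11 of 58 CRP cells holding Y-linked and no *Xist* UMIs. The study reports no CRP from its male WT mice. The control cluster here, with 6 such cells, is therefore not the same set of cells as the study's CRP. In CRP with *Xist* and no Y-linked UMIs the mean log2 ratio was 3.1, against 3.06 in all CRP.

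The composition of the CRP cluster also differed between libraries. Its CRP marker list stood at 936, 1122 and 1202 CPM and its arterial list at 1176, 549.6 and 419 CPM. Markers of other cell types were higher in it in both EC-iCOUPOE libraries, with the smooth muscle list at 16.9, 197 and 100.2 CPM, the lymphatic EC list at 27.0, 192 and 188 CPM and the pericyte list at 30.4, 82.6 and 93.9 CPM, and the smooth muscle genes *Myl9* and *Tagln* were among its 10 leading genes. *Apln* itself was at 0 UMIs in mural cells of all 3 libraries and at 1 and 0 UMIs in lymphatic EC of OE1 and OE2. At resolution 0.6, where the cluster held 195, 203 and 71 cells, the mean log2 ratio of *Apln* was 2.66, and with doublets kept it was 2.06, the lowest of 9 alternatives. Without alignment the control library had 2 CRP cells and the comparison could not be made. The part of these other cell types and of the cluster's make-up in the difference was not tested.

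The shares of *Apln* UMIs moved in the same way. CRP held 12.3% (5.08 to 23.7) of the *Apln* UMIs of control blood EC, 76.3% (69.2 to 82.5) in OE1 and 66.7% (51.6 to 79.6) in OE2, whereas they held 3.68%, 5.04% and 6.52% of all UMIs. In the control library PP CapEC held 40.4% (27.6 to 54.2), nearly all of it in cluster 5 with 22 of 23 UMIs. PP CapEC of OE1 and OE2 held 2.96% and 20.8%, from 5 and 10 UMIs.

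The level of *Apln* in PP CapEC stood at 15.8, 1.94 and 8.43 CPM, with ratios of 0.122 (0.0364 to 0.329) and 0.534 (0.227 to 1.17), too few counts for the rule. Dividing EC, another site of *Apln*, held 49.2, 29.6 and 42.4 CPM with overlapping intervals. Arterial EC and mural cells held 0 UMIs in all 3 libraries, with limits of 5.11, 9.96 and 29.8 CPM in arterial EC and of 6.88, 2.94 and 10.5 CPM in mural cells.

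**Figure D4:**
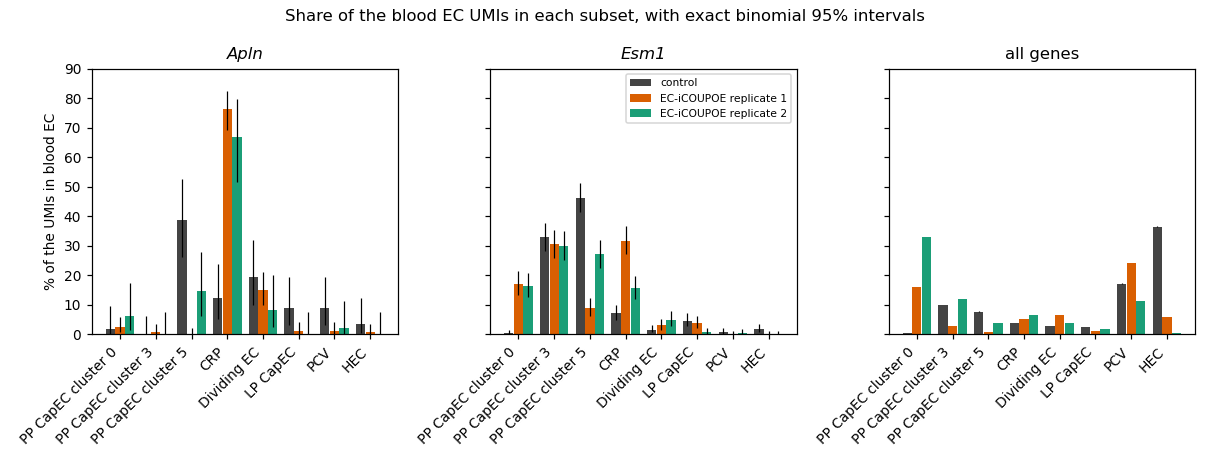
Percent of the *Apln* UMIs, the *Esm1* UMIs and the UMIs of all genes in blood EC that lie in each subset, by library, with exact binomial 95% intervals. The CRP bars of OE1 and OE2 reach 76.3% and 66.7% for *Apln* against 5.04% and 6.52% for all genes. Control *Apln* and *Esm1* lie most often in cluster 5 of PP CapEC, at 38.6% and 46.1%.

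*Esm1*, the tip cell proteoglycan endocan, was highest in PP CapEC or CRP in each library, and its genotype difference did not repeat between replicates. In PP CapEC it stood at 225 (202 to 251), 80.5 (69.9 to 92.2) and 215 (189 to 243) CPM, so OE1 was below control, at 0.357-fold (0.299 to 0.426), and OE2 was not (0.954-fold, 0.807 to 1.13). Over all blood EC it stood at 51.5, 27.9 and 142 CPM, with OE1 below and OE2 above control. PCV held 3, 0 and 1 UMIs, and lymphatic EC held 0 UMIs in both EC-iCOUPOE libraries, with limits of 1.26 and 10.2 CPM. Dividing EC held 26.8, 13.0 and 180.2 CPM and the *Colec12* cluster 1.62, 2.28 and 133 CPM. In OE2 the intervals of both overlapped that of PP CapEC.

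Within PP CapEC the level of *Esm1* differed among the clusters. Cluster 0 held 29.3, 29.6 and 70.8 CPM, the control value from 1 UMI. Cluster 3 held 169, 308 and 355 CPM and cluster 5 held 310.2, 345 and 1063 CPM. The cluster 5 ratios were 1.11 (0.745 to 1.62) in OE1 and 3.43 (2.65 to 4.41) in OE2. In cluster 3 both EC-iCOUPOE libraries lay above control, at 1.83-fold (1.41 to 2.36) and 2.11-fold (1.62 to 2.74), in the opposite direction to OE1 in the class as a whole. Cluster 0, low in *Esm1*, held 798 of the 1030 PP CapEC of OE1 and 340 of the 543 of OE2. The part of cluster make-up in the *Esm1* levels of the class was not tested.

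In CRP *Esm1* stood at 98.0, 176 and 338 CPM, with ratios of 1.79 (1.19 to 2.79) and 3.45 (2.16 to 5.62), under the rule in OE1. Its UMIs met those of *Apln* in the same cells of EC-iCOUPOE mice. After thinning, 12 of 34 *Apln*-positive blood EC of OE1 held an *Esm1* UMI, 35.3% (19.7 to 53.5), against 2.68% (2.17 to 3.27) of the others. In OE2 the shares were 6 of 12, 50% (21.1 to 78.9), and 8.13% (6.50 to 10.0).

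The control library did not show this, with 1 of 19 *Apln*-positive cells, 5.26% (0.133 to 26.0), against 7.15% (6.16 to 8.24). Its interval overlaps that of OE1, and the difference between the genotypes was not tested. Within CRP of OE1 the shares were 45.8% of 24 *Apln*-positive cells and 11.3% of 150 others, with intervals apart (25.6 to 67.2 and 6.74 to 17.5). In CRP of OE2 they were 3 of 7, 42.9% (9.90 to 81.6), and 13.7% (5.70 to 26.3), with intervals that overlap. *Apln*-positive cells did not stand out for the receptor *Aplnr*, which 38.2%, against 29.9% of the others, held in OE1 and 16.7%, against 23.7%, in OE2.

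EC-iCOUPOE cells with and without an *Nr2f2* UMI were compared within PP CapEC after thinning. *Aplnr* was higher in cells with an *Nr2f2* UMI, at 636 against 498 CPM in OE1 (ratio 1.28, 1.04 to 1.58) and 415 against 280.0 CPM in OE2 (1.48, 1.09 to 2.03). *Esm1* was lower in them, at 48.8 against 273 CPM in OE1 (0.179, 0.117 to 0.271) and 173 against 338 CPM in OE2 (0.512, 0.355 to 0.734). For *Tek*, *Tie1* and *Ptprb* all ratios had intervals that include 1.

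The same split was made within single clusters, which differ in *Nr2f2*. *Nr2f2* itself stood at 2295 and 1466 CPM in cluster 0 and at 906 and 523 CPM in cluster 3 of OE1 and OE2. Within cluster 0 the *Aplnr* ratios were 0.861 (0.689 to 1.08) and 1.00 (0.704 to 1.45) and the *Esm1* ratios 0.601 (0.235 to 1.82) and 1.36 (0.535 to 4.10). Within cluster 3 the *Esm1* ratios were 0.458 (0.246 to 0.823) in OE1 and 1.44 (0.841 to 2.46) in OE2, and the *Aplnr* ratios 1.93 (0.864 to 4.63) and 1.39 (0.430 to 4.39). In cluster 5 of OE1, 26 cells with an *Nr2f2* UMI held 0 *Esm1* UMIs and 25 cells without held 19, a ratio with an upper limit of 0.206. Cells with an *Nr2f2* UMI thus held less *Esm1*, with a ratio whose interval lay under 1, within clusters 3 and 5 of OE1 but not within cluster 3 of OE2. A cell without an *Nr2f2* UMI among 1000 may still express the transgene.

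**Figure D5:**
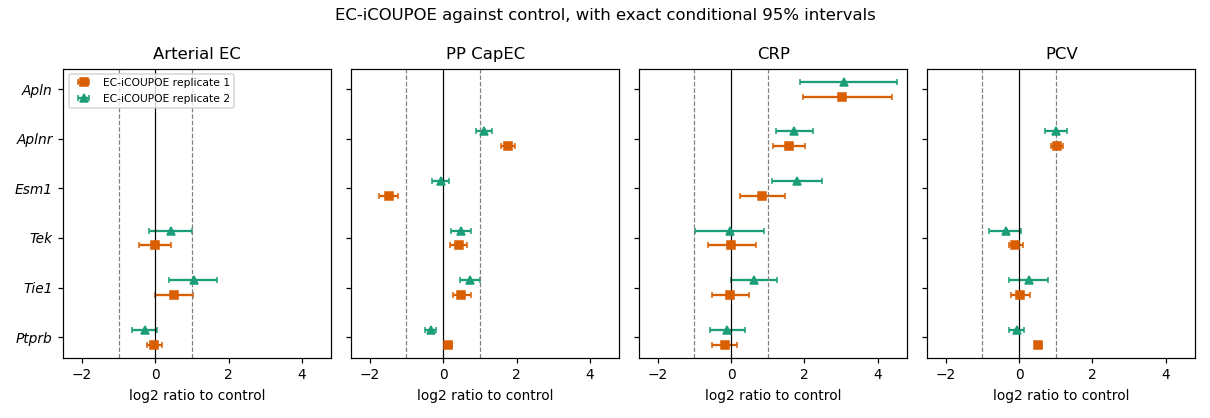
Log2 ratio of each EC-iCOUPOE library to the control library for the members tested in arterial EC, PP CapEC, CRP and PCV, with exact conditional 95% intervals that cover counting error. The solid line marks no difference and the dashed lines a 2-fold difference. The points of *Aplnr* lie past the right dashed line for both libraries in PP CapEC, CRP and PCV, those of *Apln* in CRP, and *Tek*, *Tie1* and *Ptprb* lie between the dashed lines but for *Tie1* of OE2 in arterial EC. *Aplnr* in PCV lies on the dashed line within its interval.

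Genes that work with the members were taken from fixed lists. Of 21 angiopoietin-Tie partners, among them adaptors, AKT kinases and FOXO1, 14 could be tested in PP CapEC and 0 were called, with a median log2 ratio of -0.11 against -0.04 over all genes tested. In all blood EC 18 were tested, in PCV 13, in CRP 6 and in arterial EC 4, again with 0 called. Of all genes tested, 6.85% were called in either direction in PP CapEC and 7.15% in all blood EC. The share was 4.95% in PCV, 8.38% in CRP and 4.66% in arterial EC. Of 11 FOXO target genes, 5 were tested in PP CapEC, where *Cited2*, a transcriptional co-regulator, was called higher, at 12.4, 36.0 and 71.7 CPM. The median of the 5 was -0.49, in the other direction, and 0 FOXO targets were called in all blood EC, PCV, CRP or arterial EC. Within PP CapEC, 0 of 2 FOXO targets tested were called in cluster 3 and 0 of 2 in cluster 5. In cluster 0, with 18 control cells, *Cited2* and *Cdkn1b* were called higher, where 26.9% of genes were. At the shares above, lists this short would hold few or no calls, so these counts do not set them apart.

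Apelin partners had a repeated call for *Prcp*, whose product is a lysosomal carboxypeptidase known to remove the C-terminal residue of apelin. It stood at 19.9, 289 and 217 CPM in PP CapEC, with ratios of 14.5 (10.0 to 21.8) and 10.9 (7.39 to 16.6). In PCV it stood at 85.6, 285 and 292 CPM and in CRP at 10.1, 261 and 394 CPM, the control value of CRP from 3 UMIs. *Hdac4*, a class II histone deacetylase downstream of apelin receptor signalling, was also called in PP CapEC, at 7.56, 20.9 and 19.4 CPM. The other 10 of 12 apelin partners tested in PP CapEC were not called, where 4.35% of all genes tested were called higher. Within single clusters of PP CapEC, 0 of 7 apelin partners tested were called in cluster 3 and 0 of 5 in cluster 5. In cluster 0, with 18 control cells, 2 of 11 were called higher (*Furin* and *Prcp*), against 26.9% of genes called higher. The part of cluster make-up in the *Prcp* and *Hdac4* differences was not tested. In arterial EC 0 of 6 were called, against 4.66% of all genes tested in either direction. In dividing EC 4 of 7 were called higher (*Prcp*, *Gnai3*, *Gnaq* and *Mef2c*), with a median log2 ratio of 1.26 against 0.18 over all genes, from 23 control cells and against 9.83% of genes called higher.

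Among 14 other angiogenic tip genes, 11 were tested in PP CapEC, with 1 called higher and 2 lower, against 6.85% of all genes tested in either direction. In all blood EC 3 of 14 were called higher (*Trp53i11*, *Adm* and *Pgf*) and *Kcne3* was called lower, against 7.15% of genes in either direction. *Adm* stood at 2.61, 6.35 and 24.5 CPM there, with ratios of 2.43 and 9.38. *Trp53i11* stood at 44.0, 89.0 and 119 CPM in PP CapEC and at 125, 416 and 438 CPM in CRP. It was the 1 tip gene called of 9 tested in CRP, against 8.38% of genes in either direction. *Cxcr4*, a chemokine receptor of tip cells, stood at 60.4, 6.58 and 16 CPM in PP CapEC and *Dll4*, the Notch ligand of tip cells, at 157, 49.9 and 64.9 CPM. Within PP CapEC, 0 of 7 tip genes tested were called in cluster 3 and 0 of 6 in cluster 5. Of these PP CapEC calls only *Dll4* was also made in cluster 0, with 18 control cells, and the part of make-up was not tested. Further PP CapEC cluster 0 calls were *Plaur* and *Vegfc*, higher, and *Lxn*, lower, among the tip genes. Several of these genes are CRP markers that helped to name the cluster, so their level in CRP describes it. The genes that went most closely with *Apln* over the 36 points were *Fscn1* (0.73), *Dcbld1* (0.71) and *Arhgap18* (0.70), and those closest to *Aplnr* were *Proser2* (0.87), *Hcls1* (0.83) and *Ctla2a* (0.81).

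*Esm1* went with *Car4* (0.80), *Igfbp3* (0.79) and *Col4a1* (0.78), *Angpt1* with *P2rx1* (0.96), *Prrx1* (0.96) and *Vtn* (0.91), and *Angpt2* with *Mfsd4a* (0.73), *Lims1* (0.71) and *Mical2* (0.70). *Ptprb* went with *Tek* (0.93), *Adgrg1* (0.89) and *Hhex* (0.89). Among the members themselves, *Apln* and *Esm1* correlated at 0.65, *Apln* and *Aplnr* at 0.53 and *Tek* and *Tie1* at 0.81, and *Angpt1* was negative against each of the receptor genes *Tek* (-0.40) and *Tie1* (-0.54).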

How the data were processed

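Single-cell RNA sequencing was performed on sorted cells of 1 control and 2 EC-iCOUPOE libraries. The authors deposited UMI counts per gene and barcode, made with Cell Ranger on mm10 (version 3.0.2 per the labels, 3.0.2 and 3.1.0 per the file headers). The labels name both a v3 platform and a v2 kit, so chemistry may differ between libraries and its effect was not tested. OE1 alone has the 3.1.0 header and shared 0 cell barcodes with the other libraries, whereas the control library and OE2 shared 12. A difference in chemistry between OE1 and the others cannot be told apart here from other differences between them.

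A barcode was kept when it had 500 or more genes, a total of 1000 or more UMIs and no more than 10% of them mitochondrial (5473, 4750 and 1243 barcodes), and doublets were called with Scrublet in scanpy 1.11.5 at an expected rate of 6% and removed (132, 46 and 4). A caller mark of 4 cells in the smallest library means that doublets remain possible there. Libraries were aligned with reciprocal PCA in Seurat 5.3.0 (R 4.3.3) on 2000 variable genes without the members, with 30 components, 20 neighbours and resolution 1. Clusters were named from marker lists, and CapEC were split into PP and LP by the subset labels the study gives for 1999 EC-iCOUPOE cells.

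Counts were summed per subset and library. Genes with at least 50 UMIs in 1 library and subsets with at least 10 cells in each library were compared, and a call needed 2-fold in both EC-iCOUPOE libraries. Intervals are exact at 95% (Poisson, binomial, or conditional on the sum of counts) and cover counting error alone, and a count of 0 is given the limit of 3 counts. Cells were thinned to 1000 UMIs for shares. Calculations used Python 3.11.15 with numpy 2.4.6, scipy 1.17.1 and pandas 2.3.3, and edgeR 4.0.16 as an alternative. The call rule was tested on simulated Poisson counts with no spread between libraries. Such counts cannot show how often differences between samples alone would give a call.

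All 8 members are described. The 3 genes most like each member were taken by Pearson's r of log2(CPM + 10) over points with at least 20 cells, and up to 4 called genes were named per pathway list. Members and lists were chosen with earlier results of these data known. Alternatives were scaling, resolution, alignment, doublets, per-cell weighting, sex of the cells, left-out libraries, fold and count thresholds and edgeR. Promoters of *Angpt1*, *Angpt2*, *Ptprb* and *Aplnr* were not used here.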

Additional observations from a re-analysis of the deposited data

How the results depend on the processing

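No paired analysis was possible because there is 1 control library and no label pairs it with an EC-iCOUPOE library. The limits are the single control library, the shallow OE2 library and subsets that had to be rebuilt. Of 261 log2 ratios of members recomputed under alternatives, 212 moved by less than 1 SD of the EC-iCOUPOE libraries and 240 kept their sign. Among those that did not keep it, the mean log2 ratio changed sign for *Angpt2* in all blood EC in Y-positive cells (-0.81 to 0.75), for *Esm1* in all blood EC with the mean of per-cell CPM, in Y-positive cells and without OE2 (0.29 to -0.21, -0.26 and -0.88) and for *Esm1* in PP CapEC in cluster 3 alone (-0.78 to 0.97). Part of the count of 212 was fixed in advance. Leaving out 1 of the 2 EC-iCOUPOE libraries always moves their mean by less than 1 SD. All blood EC were the same cells at resolutions 0.6 and 1.6 as at resolution 1, so their ratios could not move. The causes of the changes below were not tested.

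In PP CapEC the number of members called, 1, became 0 at resolution 1.6, without alignment, with doublets kept, with the mean of per-cell CPM, in capillary cluster 3 alone and with edgeR. It became 3 in cells with Y-linked and no *Xist* UMIs, of which the control library had 28 in PP CapEC. In PCV, 1 became 0 with median-of-ratios size factors, at resolution 1.6 and with edgeR. In CRP, 2 became 1 with edgeR, the one being *Apln*, and 3 with the mean of per-cell CPM and with a 1.5-fold rule. In all blood EC, 0 became 1 in *Xist*-positive cells, 1 in Y-positive cells and 2 with a 1.5-fold rule, and in arterial EC 0 became 1 with no filter on UMIs. Leaving out 1 EC-iCOUPOE library gave 2 to 3 in all blood EC, 1 to 2 in PP CapEC, 0 to 1 in arterial EC, 1 in PCV and 2 to 3 in CRP. A call in 1 library alone, or at 1.5-fold, is easier to reach than under the main rule. The share of all genes called under these alternatives is not given here, so the counts cannot be set against it. Without OE2 the second PP CapEC call was *Esm1*, lower in OE1.

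The number of members with the same highest subset in all 3 libraries, 2 among arterial EC, PP CapEC, PCV and CRP, became 7 without alignment, where PCV and CRP dropped out because the control library had 0 and 2 such cells. CRP and PCV could not be compared without alignment, and arterial EC and CRP could not be compared in Y-positive cells for want of 10 cells in a library.

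With edgeR's quasi-likelihood test, where the lone control library is assumed to vary like the EC-iCOUPOE libraries, 0 genes passed an adjusted p of 0.05 in all blood EC (772 at an unadjusted p under 0.05), 101 in PP CapEC (660), 26 in arterial EC (141), 6 in PCV (436) and 31 in CRP (251).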
